A study of Mus musculus with 9 samples.

Results

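This comparison set the mean of both fast-acting antidepressant treatments, ketamine and sleep deprivation, against saline in mouse anterior cingulate cortex, and asked which genes both treatments moved the same way. It used all 9 arrays of the study: 3 saline arrays, and 6 treated arrays made up of 3 after ketamine and 3 after sleep deprivation, with the treatments weighted equally. Its members are the 22180 genes with a probe set that names a single gene, which are all the genes tested in the series. Each gene was read from its brightest probe set.

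The mice were of the inbred strain C57BL/6J. Saline mice were injected intraperitoneally at ZT5, where ZT counts hours from lights on. Ketamine mice received 3 mg/kg by the same route at the same hour. Sleep-deprived mice were kept awake by a slowly turning bar for 12 h from ZT0, with no injection named in their labels. Every brain was taken at ZT13, which is 8 h after an injection and 1 h after the end of deprivation. The cortex was dissected between 1.34 and -0.5 mm from bregma. The labels number the arrays in order by group, so array order and group cannot be told apart. The sleep-deprived mice also differ from the saline mice in the injection, and the ketamine mice do not.

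Ketamine blocks the NMDA class of glutamate receptor and relieves depressive symptoms within hours at low doses, and a night without sleep has a fast but short-lived effect of the same kind. Immediate-early genes such as Fos are transcribed in neurons within minutes of activity and their transcripts decay quickly, so their level reflects recent activity. The circadian clock is a loop in which CLOCK and BMAL1 (gene Arntl) bind E-box sequences and switch on their own repressors, among them the Per, Cry, Bhlhe40, Bhlhe41 and Ciart genes. Forced wakefulness and neuronal activity both act on parts of that loop in the cortex.

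The deposited values were intensities, and array medians lay between 97.7 and 106.2. Differences are of log2(intensity + 16), given ± SE from the limma fit of all 9 arrays with n = 3 arrays per group. The median SE of the pooled difference was 0.094, and the number of arrays limits this precision. The labels call the replicates biological. The neuronal markers Camk2a, a kinase of excitatory neurons, and Slc17a7, the vesicular glutamate transporter of cortex, read 4766 to 5204 and 2691 to 2965 over the 9 arrays. No member of any cell-type marker list read under 1 on any array (0 members). With array medians between 97.7 and 106.2, a reading above 1 does not show that a gene is expressed. In bulk tissue, fewer cells of a type and less RNA per cell cannot be told apart.

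No gene passed the test across all genes. At a limma adjusted p under 0.05, 0 of 22180 genes were called, a share of 0%, and the smallest adjusted p was 1.00. At unadjusted p under 0.05 there were 533 genes, of which 231 (1.04%) were higher and 302 (1.36%) were lower in the treated mean. Together this is fewer genes than a threshold of 0.05 passes when no gene differs. The unadjusted limma p was at most 0.1 in 1264 genes and over 0.9 in 2474. The groups did not overlap in 284 genes: all 6 treated arrays lay above the 3 saline arrays in 100 genes (0.451%) and below them in 184 genes (0.83%). These shares are the background for every count given for a gene list. None of the 22180 genes is therefore called here as moved by both treatments, and the genes below are described by their values. The leading 10 genes in each direction are those with the smallest unadjusted p among genes at or above the median level whose treated and saline arrays do not overlap. They were chosen on this contrast, so their p-values are a description.

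The treatments differed from each other more often than their mean differed from saline. The difference between ketamine and sleep deprivation, which uses no saline array, had an unadjusted p under 0.05 in 2102 genes (9.48%) and an adjusted p under 0.05 in 0 genes (0%), with a smallest adjusted p of 0.172. Its median SE was 0.109. Each treatment's own difference from saline is given below beside the pooled one, and both use the same saline arrays.

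The direction of the pooled difference varied with the level of the gene. Over all genes the median was -0.01 and 54.6% were lower in the treated mean. Among the 11090 genes at or above the median level the figures were -0.029 and 64.6%. With genes split by level into 4 equal sets, in the brightest set 68.2% were lower and 83 genes had all treated arrays below saline against 16 with all above, while in the dimmest set 45.6% were lower and these counts were 31 and 27. After quantile normalization 50.2% of all genes were lower with a median of -0.00047, so the surplus of lower genes depended on the scaling. Medians of the main lists are therefore given under that normalization too.

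Fos, the activity-induced subunit of the AP-1 transcription factor, was the gene with the smallest p among those lower in the treated mean. Its intensity was 803, 801 and 721 in the saline arrays, 559, 535 and 629 after ketamine, and 600, 629 and 540 after sleep deprivation. Every treated array lay below every saline array, and the treated groups covered nearly the same range. The pooled difference was -0.40 ± 0.09 (limma unadjusted p = 0.000373, adjusted p = 1.00), with -0.42 after ketamine and -0.39 after sleep deprivation. The treatments differed from each other by -0.04 ± 0.10 (limma unadjusted p = 0.71). With each array left out in turn the pooled value stayed between -0.45 and -0.37.

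Junb, another AP-1 subunit, read 564, 577 and 503 after saline, 425, 374 and 393 after ketamine, and 448, 478 and 433 after sleep deprivation. The groups did not overlap, and the ketamine arrays were the lowest of the 9. Pooled, Junb was at -0.36 ± 0.08 (limma unadjusted p = 0.0007), with -0.45 after ketamine and -0.27 after sleep deprivation. Npas4, a neuron-specific transcription factor induced by calcium entry, read 1074, 1103 and 1070 after saline. It read 743, 889 and 1036 after ketamine and 887, 833 and 798 after sleep deprivation. All treated arrays lay below saline, although ketamine array 3 was close to it. Pooled, Npas4 was at -0.33 ± 0.10 (limma unadjusted p = 0.0049), with -0.29 and -0.36 for ketamine and sleep deprivation.

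Ciart, a repressor of the circadian loop, read 419, 407 and 426 after saline, 361, 336 and 359 after ketamine, and 256, 335 and 246 after sleep deprivation. The 6 treated arrays were all lower than saline, and every sleep-deprived array was lower than every ketamine array, array 2 only just. The pooled difference was -0.40 ± 0.10 (limma unadjusted p = 0.00096), with -0.23 after ketamine and -0.57 after sleep deprivation. Ciart was thus lower in both groups but by unequal amounts, since ketamine minus sleep deprivation was 0.33 ± 0.11 (limma unadjusted p = 0.0097, adjusted p = 0.427). Bhlhe41, a helix-loop-helix repressor that competes for E-boxes and is tied to sleep length, read 333, 359 and 330 after saline. It read 291, 298 and 290 after ketamine and 270, 293 and 244 after sleep deprivation, with no overlap between treated and saline arrays. Its pooled difference was -0.27 ± 0.08 (limma unadjusted p = 0.0053), with -0.21 and -0.33 for ketamine and sleep deprivation.

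**Figure D1:**
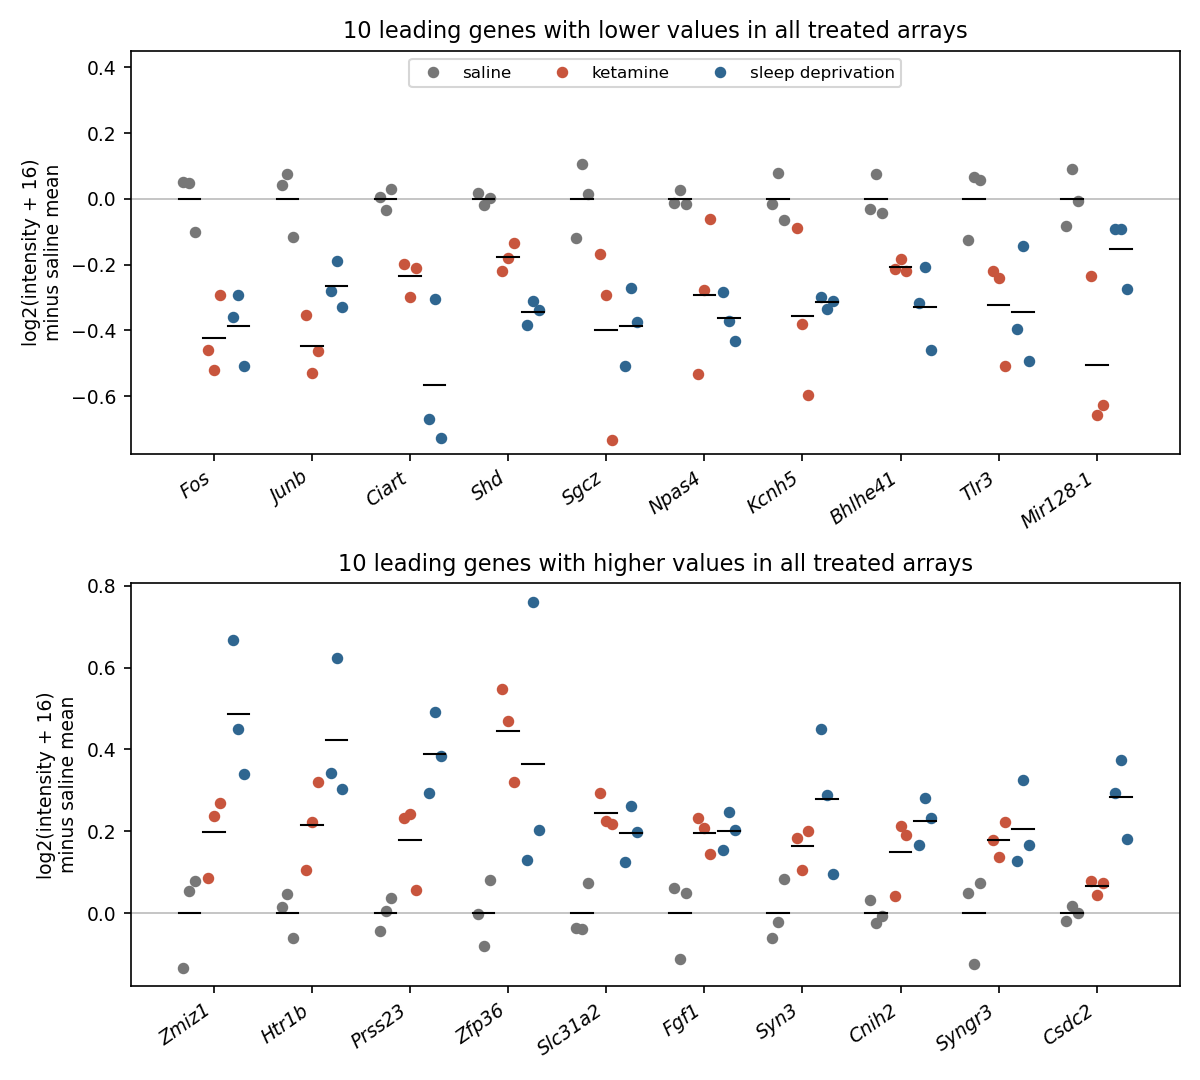
Log2(intensity + 16) of each array minus the saline mean for the 10 leading genes in each direction, with points for arrays and bars for group means (3 arrays each; saline grey, ketamine red, sleep deprivation blue). In every gene shown the 6 treated arrays lie on one side of the 3 saline arrays, as the choice of genes required; among the lower genes Ciart (-0.23 after ketamine, -0.57 after sleep deprivation) and Mir128-1 (-0.51 and -0.15) have the most unequal treatments.

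The promoters of Ciart and Bhlhe41 are shown with that of Fos because these genes led the lower side and the clock proteins act through a known E-box. The sequences are the 250 bases before the transcription start from RefSeq on GRCm38.p6, 5′ to 3′ on the gene's strand, with E-boxes in capitals. Ciart lies at chr3:95882229-95882478, minus strand, Bhlhe41 at chr6:145865421-145865670, minus strand, and Fos at chr12:85473640-85473889, plus strand.
Ciart: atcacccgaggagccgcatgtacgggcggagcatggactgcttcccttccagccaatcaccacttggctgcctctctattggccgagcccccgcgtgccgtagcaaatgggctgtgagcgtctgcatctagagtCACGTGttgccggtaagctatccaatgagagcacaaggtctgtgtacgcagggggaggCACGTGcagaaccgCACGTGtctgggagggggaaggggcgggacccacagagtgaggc
Bhlhe41: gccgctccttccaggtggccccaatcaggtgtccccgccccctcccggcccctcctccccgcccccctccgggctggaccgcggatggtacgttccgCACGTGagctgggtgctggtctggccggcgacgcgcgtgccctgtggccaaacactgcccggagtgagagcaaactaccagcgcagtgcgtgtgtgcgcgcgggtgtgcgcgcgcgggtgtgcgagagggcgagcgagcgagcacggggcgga
Fos: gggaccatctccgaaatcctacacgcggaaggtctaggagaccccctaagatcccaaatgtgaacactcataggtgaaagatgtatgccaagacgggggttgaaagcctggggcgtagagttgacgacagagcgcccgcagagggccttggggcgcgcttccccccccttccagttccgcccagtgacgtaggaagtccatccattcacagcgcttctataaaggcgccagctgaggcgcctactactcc
Both strands of the window from 250 bases before to 50 bases after the start were searched for the E-box CACGTG, the cyclic AMP response element TGACGTCA, the AP-1 site TGAGTCA or TGACTCA, the D-box TTATGTAA and the CArG box of serum response factor. Ciart held 3 E-boxes, beginning 116, 58 and 44 bases before the start, and Bhlhe41 held 1, beginning 153 bases before it. The Fos window held none of the motifs in these letters. The E-box was present in 7.24% of 27025 gene promoters of the same length and in 8.2% of the 16990 that belong to measured genes.

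Of the core clock genes with a promoter in the table, 4 of 14 held an E-box: Bhlhe41, Ciart, Cry1 and Per1. Of these, Ciart and Bhlhe41 had all treated arrays below saline, while Cry1 was at -0.12 ± 0.08 and Per1 at -0.02 ± 0.09 with overlapping arrays. An E-box in this window therefore went with both kinds of value. Among immediate-early genes 7 of 34 promoters held an E-box and 3 of 34 the cyclic AMP element, which 1.85% of all promoters held. These are matches of letters and not bound sites.

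The other genes that led the lower side were Shd, Sgcz, Kcnh5, Tlr3 and Mir128-1. Kcnh5, a voltage-gated potassium channel gene of the EAG family, read 1148, 1227 and 1110 after saline, 1090, 888 and 763 after ketamine, and 940, 917 and 934 after sleep deprivation. Ketamine array 1 lay just under the lowest saline array. Kcnh5 differed from saline by -0.33 ± 0.10 in the pooled mean (limma unadjusted p = 0.0051), and the treatments gave -0.35 and -0.31. Shd, an SH2-domain adapter gene, had the least scatter of the set, with 368, 359 and 364 after saline and 275 to 330 over the treated arrays. Its pooled difference was -0.26 ± 0.07, with -0.18 after ketamine and -0.34 after sleep deprivation. Sgcz, which encodes zeta-sarcoglycan, was lower by 0.39 on the log2 scale (-0.39 ± 0.12), with -0.40 and -0.39 in the order ketamine and sleep deprivation. Tlr3, the sensor of double-stranded RNA, was at -0.33 ± 0.10, with -0.32 and -0.34.

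Zmiz1, a transcriptional coregulator gene, had the smallest p among bright genes with higher treated values. It read 723, 826 and 840 after saline, 845, 940 and 961 after ketamine, and 1271, 1092 and 1011 after sleep deprivation. The lowest ketamine array stood only just above the highest saline array, and all sleep-deprived arrays were above all ketamine arrays. In the pooled mean Zmiz1 was higher by 0.34 ± 0.09 (limma unadjusted p = 0.0026), with 0.20 after ketamine and 0.49 after sleep deprivation.

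Htr1b, which encodes the inhibitory serotonin 1B receptor of axon terminals, read 209, 214 and 197 after saline. It read 223, 244 and 262 after ketamine and 266, 327 and 258 after sleep deprivation. The treated arrays all lay above saline, by 0.22 and 0.42 in the group means for ketamine and sleep deprivation. The pooled difference was 0.32 ± 0.09 (limma unadjusted p = 0.0036), and the treatments differed by -0.21 ± 0.11 (limma unadjusted p = 0.069). Htr1b was the 1 serotonin receptor gene of 14 measured with an unadjusted p under 0.05. Htr1a, another inhibitory serotonin receptor gene, was in the other direction at -0.19 ± 0.09 (limma unadjusted p = 0.055).

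Zfp36 encodes tristetraprolin, which binds AU-rich elements and shortens the life of unstable transcripts. It read 145, 137 and 155 after saline, 220, 207 and 186 after ketamine, and 161, 257 and 170 after sleep deprivation. Sleep-deprived array 2 was the highest of all, and the other sleep-deprived arrays lay below every ketamine array. Zfp36 differed by 0.41 ± 0.12 in the pooled mean (limma unadjusted p = 0.0055), with 0.45 and 0.36 for ketamine and sleep deprivation. Zfp36 stood opposite to Fos and Junb although it too is known as an early response gene.

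The remaining leading genes on the higher side were Prss23, Slc31a2, Fgf1, Syn3, Cnih2, Syngr3 and Csdc2, with pooled differences from 0.17 ± 0.08 (Csdc2) to 0.28 ± 0.08 (Prss23). Of these, 3 encode proteins of the synapse. Syn3, a synaptic vesicle phosphoprotein gene, was at 0.22 ± 0.09, Syngr3, an integral vesicle protein gene, at 0.19 ± 0.08, and Cnih2, an auxiliary subunit of AMPA receptors, at 0.19 ± 0.08. Fgf1, a growth factor gene, was at 0.20 ± 0.08 with 0.20 after each treatment, and its saline arrays at 301, 265 and 299 lay below the treated range of 320 to 345. In Csdc2, an RNA-binding cold-shock domain gene, ketamine at 0.07 was well under sleep deprivation at 0.28. Among the 20 leading genes all 20 kept their direction with each array left out in turn, which the choice of genes without overlap made certain. Of the 20, 14 kept an unadjusted p under 0.05. Those that did not were Slc31a2, Fgf1, Syn3, Cnih2, Syngr3 and Csdc2, whose p reached 0.054 to 0.20 without saline array 1 or 2.

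Probe sets for microRNA genes also stood near the top. Mir29a had the smallest p of all genes in either direction. It read 23.5, 22 and 21.5 after saline, 31.8, 25.6 and 35 after ketamine, and 46.4, 73.5 and 58.2 after sleep deprivation. The groups did not overlap, and the sleep-deprived arrays stood apart above the ketamine arrays. The pooled difference was 0.62 ± 0.11 (limma unadjusted p = 5.5e-05, adjusted p = 1.00), with 0.28 after ketamine and 0.96 after sleep deprivation. Mir34a read 29, 28.9 and 27.4 after saline, 46, 43.2 and 53.4 after ketamine, and 34, 38.3 and 50.3 after sleep deprivation, again without overlap. Its pooled difference was 0.43 ± 0.10 (limma unadjusted p = 0.00058).

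Both lay under the median intensity of the arrays, where the offset shapes the value: with offsets of 1 and 64 the difference of Mir29a ran from 0.32 to 0.89 and that of Mir34a from 0.22 to 0.60. Mir128-1 was brighter and lower in the treated mean, at 651, 736 and 687 after saline, 584, 432 and 442 after ketamine, and 648, 646 and 569 after sleep deprivation. Its sleep-deprived arrays 1 and 2 lay just under the lowest saline array. The pooled difference was -0.33 ± 0.10, with -0.51 after ketamine and -0.15 after sleep deprivation, which differ by -0.35 (limma unadjusted p = 0.0096).

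The mature products of these 3 genes are given because none of them shares a seed with another. They come from RefSeq on GRCm38.p6, 5′ to 3′, with the seed (bases 2 to 8) in capitals.
miR-29a-3p: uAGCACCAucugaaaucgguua
miR-29a-5p: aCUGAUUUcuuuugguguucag
miR-34a-5p: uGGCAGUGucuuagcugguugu
miR-34a-3p: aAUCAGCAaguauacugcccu
miR-128-3p: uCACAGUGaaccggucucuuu
miR-128-1-5p: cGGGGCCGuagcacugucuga
The probe sets were not matched to a mature arm or to the precursor, so their values are those of probes annotated to the gene.

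The other genes with the smallest p at any level were mostly dim. Nxpe5, Psg21 and Olfr672 were higher by 0.39, 0.38 and 0.45 on the log2 scale. Vmn1r173 and Kir3dl1 were lower, at -0.47 ± 0.10 and -0.42 ± 0.10. Vmn1r173, a pheromone receptor gene, read from 0.0049 to 12 over the 9 arrays, and its difference ran from -2.09 to -0.14 with the offset, so its size carries little weight.

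Immediate-early genes mostly had lower values in the treated mean. Of 43 listed genes 42 were measured, 34 were lower and 8 higher, and the median pooled difference was -0.12, against -0.029 for all genes at or above the median level. By treatment the list's median was below saline after ketamine, at -0.27, and close to it after sleep deprivation, at 0.018. After quantile normalization 31 were lower and the median was -0.10. At adjusted p under 0.05 there were 0 members. At unadjusted p under 0.05, 11 members were lower and 0 higher, and 4 members, Fos, Junb, Npas4 and Rgs2, had all treated arrays below saline. The backgrounds for these counts are the 1.36% and 0.83% given above. Zfp36, the early response gene at 0.41 ± 0.12 with all treated arrays above saline, was not on this list. The counts therefore leave it out.

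The direct difference between treatments covered more of the list. Ketamine minus sleep deprivation had a median of -0.21 over the list, and 19 of 42 members had an unadjusted p under 0.05, beside 9.48% of all genes. All of these had lower values after ketamine, and 0 were lower after sleep deprivation. Homer1, a postsynaptic scaffold gene with an activity-induced short form, read 1232, 1400 and 1140 after saline, 1095, 919 and 900 after ketamine, and 1453, 1550 and 1363 after sleep deprivation. Its ketamine arrays were all below saline and 2 of its 3 sleep-deprived arrays were above every saline array, and the pooled difference was -0.08 ± 0.09. In Nptx2, Dusp5, Ptgs2 and Bdnf, chosen after their values were seen, the group mean was below saline after ketamine and above it after sleep deprivation. Nptx2, a secreted pentraxin that gathers AMPA receptors, was at -0.18 after ketamine and 0.59 after sleep deprivation, which pooled to 0.20 ± 0.10. Bdnf, the neurotrophin linked to ketamine's action, was at -0.27 and 0.25 and had a pooled difference of -0.01 ± 0.11.

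Between these poles the members with a small pooled p differed in how evenly the treatments shared the value. Rgs2, which limits G-protein signalling, was at -0.21 after each treatment, with 648, 626 and 650 after saline and 487 to 615 over the treated arrays. Gadd45g and Gadd45b, growth-arrest genes, were at -0.33 ± 0.11 and -0.30 ± 0.10, with -0.30 and -0.35 for Gadd45g and -0.35 and -0.25 for Gadd45b in the order ketamine and sleep deprivation. Sleep-deprived array 2 read 196 for Gadd45g, as high as the saline arrays, while the others read 127 and 131. Btg2, an antiproliferative gene, leaned towards sleep deprivation with -0.18 and -0.42.

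Egr2, Tiparp, Klf4 and Nr4a2 leaned towards ketamine. Egr2, a zinc-finger factor, was at -0.36 ± 0.14 with -0.57 and -0.15, and Tiparp, an ADP-ribosyltransferase gene, at -0.33 ± 0.11 with -0.50 and -0.16. Klf4, a Krüppel-like factor gene, was at -0.19 ± 0.08 with -0.33 and -0.04. Nr4a2, an orphan nuclear receptor gene, read 385, 544 and 317 after saline and 286 to 364 over the treated arrays, so that it overlapped. Its pooled difference was -0.33 ± 0.13, and -0.13 (limma unadjusted p = 0.25) without saline array 2, the highest array.

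**Figure D2:**
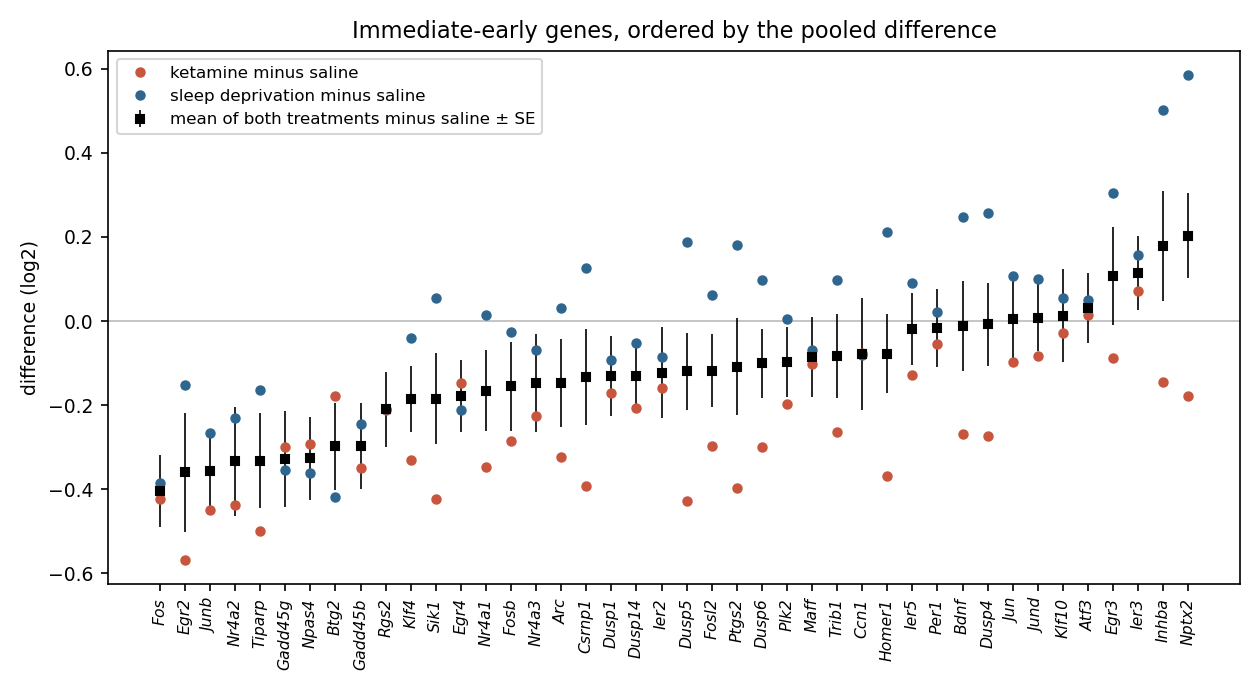
Pooled difference from saline (black squares, ± SE from limma) and each treatment's own difference (ketamine red, sleep deprivation blue; n = 3 arrays per group) for the 42 measured immediate-early genes, on the log2 scale. Fos, Rgs2, Npas4 and Gadd45g have nearly equal treatments, while Nptx2 and Bdnf have ketamine below 0 and sleep deprivation above 0.

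**Figure D3:**
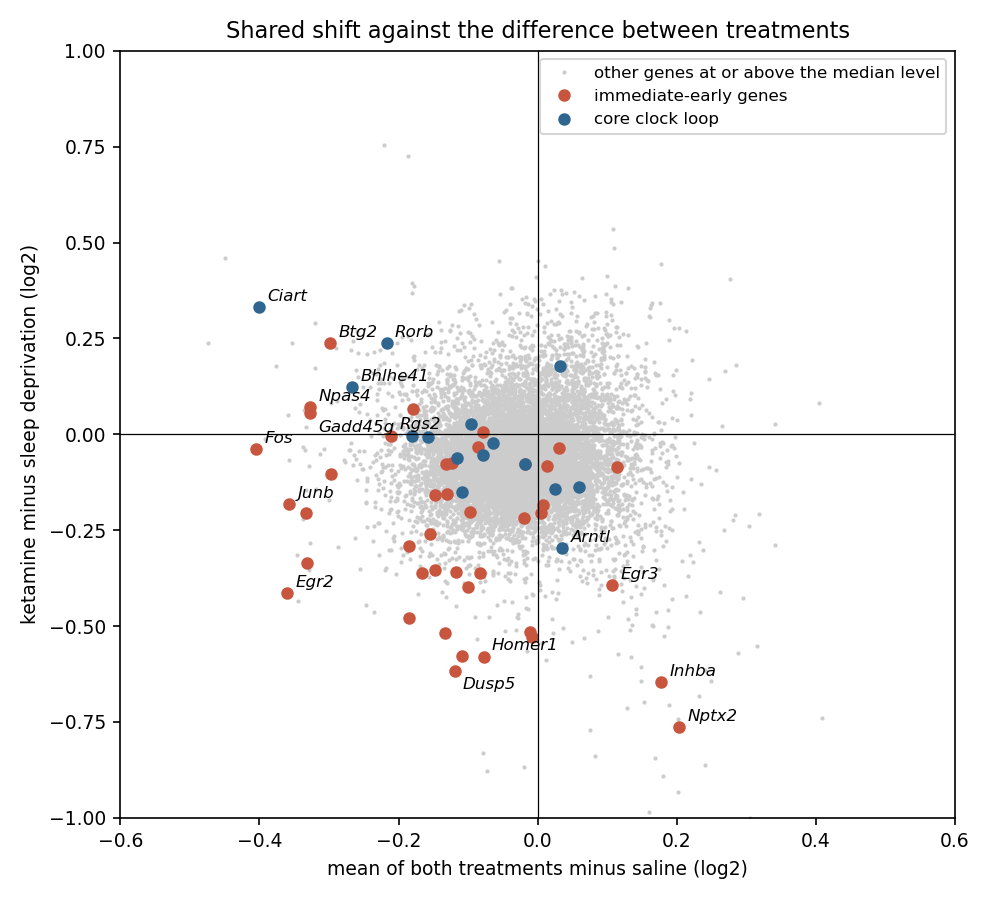
Pooled difference from saline (horizontal, log2) against ketamine minus sleep deprivation (vertical, log2) for 11090 genes at or above the median level, of which 3 fall outside the axes, with immediate-early genes in red and core clock genes in blue. Fos and Npas4 lie near 0 on the vertical axis, and Nptx2 and Inhba lie lowest among the marked genes. Per1 belongs to both lists and is drawn as a clock gene.

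In the core clock loop Ciart and Bhlhe41 had the lowest values, and the other members of both limbs differed less from saline. Of 17 listed genes 15 were measured, 11 were lower and 4 higher, with a median of -0.095, and -0.069 with 10 lower after quantile normalization. Per2 was not among the 15, so no value is given for it. At unadjusted p under 0.05 there were 2, Ciart and Bhlhe41, and these were also the 2 with all treated arrays below saline. On the activator side Clock was at 0.02 ± 0.08, its partner Arntl at 0.04 ± 0.09 and its paralogue Npas2 at 0.06 ± 0.09. Arntl differed between treatments, with -0.11 after ketamine and 0.18 after sleep deprivation (limma unadjusted p = 0.013). Arntl2 was at -0.18 ± 0.09 with -0.18 after each treatment.

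Among the repressors Per1 was at -0.02 ± 0.09, Per3 at -0.06 ± 0.08, Cry1 at -0.12 ± 0.08, Cry2 at -0.08 ± 0.08 and Bhlhe40 at -0.16 ± 0.08. The orphan receptors that tune Arntl were at 0.03 ± 0.09 (Nr1d1), -0.10 ± 0.08 (Nr1d2), -0.11 ± 0.10 (Rora) and -0.22 ± 0.11 (Rorb). The signs of Clock, Arntl, Per1 and Nr1d1 turned when some single arrays were left out, and that of Per1 also after quantile normalization, so no direction is given for them. Clock output genes, which the loop drives, had a median of -0.079 with 13 of 17 lower and 0 at unadjusted p under 0.05. That median was -0.040 after quantile normalization, with 12 lower, and also -0.040 without ketamine array 2. Dbp, a bZIP factor and classical E-box target, was at -0.18 ± 0.09, made up of 0.02 after ketamine and -0.37 after sleep deprivation.

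In genes for the basic machinery of cells the differences were small and mostly lower. Oxidative phosphorylation genes were lower in 47 of 52, with a median of -0.070, and the cytochrome oxidase gene Cox4i1 (-0.21 ± 0.08) and the complex III gene Uqcrq (-0.21 ± 0.10) had an unadjusted p under 0.05. Cytosolic ribosomal protein genes were lower in 37 of 44, with a median of -0.083. Among them 4 were lower at unadjusted p under 0.05, including Rps28 (-0.25 ± 0.09), Rps19 (-0.23 ± 0.09) and Rpl9 (-0.19 ± 0.08), and 1 was higher, the dim Rps15. The values of Rps28, Rps19 and Rpl9 depended on the probe set. With the mean of all probe sets they were smaller, at -0.11, -0.17 and -0.11. Proteasome subunit genes were lower in 26 of 30, with a median of -0.075 and 0 at unadjusted p under 0.05. Quantile normalization gave medians of -0.047, -0.064 and -0.045 in the same order. Without saline array 1 they were -0.021, -0.029 and -0.014.

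Other pathway lists had few or no members with a small p. Cholesterol synthesis genes were lower in 15 of 17 with a median of -0.094. The enzyme genes Msmo1, Lss and Sqle were at -0.20 ± 0.11, -0.19 ± 0.11 and -0.18 ± 0.11. Sqle was at 0.00 after ketamine and -0.37 after sleep deprivation, so its pooled value came from 1 treatment. Glucocorticoid-responsive genes had a median of 0.048, with -0.073 after ketamine and 0.12 after sleep deprivation. Pdk4, a kinase gene that restrains glucose oxidation, was the 1 member of 24 with an unadjusted p under 0.05, and it was lower at -0.26 ± 0.11. Dio2, which activates thyroid hormone, was at -0.25 ± 0.09, with -0.47 after ketamine and -0.02 after sleep deprivation.

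Genes for transmitter receptors and channels had small differences. All 6 metabotropic glutamate receptor genes measured were lower, with a median of -0.083 and 0 at unadjusted p under 0.05. NMDA receptor subunit genes, whose product ketamine blocks, had a median of -0.022 with 3 of 6 lower, and Grin2a was at -0.08 ± 0.08 and Grin3a at -0.12 ± 0.09. Grin2d and Grin3b were in the other direction, at 0.07 ± 0.09 and 0.06 ± 0.10. AMPA and kainate subunit genes had a median of -0.035. Gabrd, which encodes the delta subunit of extrasynaptic GABA-A receptors, had all treated arrays below saline: 307, 319 and 324 after saline, 279, 278 and 268 after ketamine, and 283, 296 and 270 after sleep deprivation. Its difference was small at -0.17 ± 0.07 (limma unadjusted p = 0.035), with -0.19 and -0.15 by treatment.

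Among interneuron genes, 2 for calcium-binding proteins had lower treated means: Calb1, calbindin, at -0.24 ± 0.09 and Calb2, calretinin, at -0.27 ± 0.11. In the order ketamine and sleep deprivation, Calb1 was at -0.18 and -0.30 and Calb2 at -0.40 and -0.13. Treated and saline arrays overlapped in both genes, and for Calb2 sleep-deprived array 2 read 137, above every saline array. Calb1 and Calb2 were the 2 of 18 in that list at unadjusted p under 0.05, and Sst, somatostatin, stood opposite at 0.15 ± 0.09. Ifih1, a sensor of viral RNA, was at -0.21 ± 0.09, the 1 interferon-response gene of 17 with an unadjusted p under 0.05, while Bst2, Ddx58 and Mx1 were at 0.20, 0.14 and 0.14. Tlr3 and Ifih1 were thus lower where Bst2, Ddx58 and Mx1 were higher. Of all 17 interferon-response genes 7 were lower and 10 higher, so the named genes do not stand for the list. Mx1 was dim and higher mainly after ketamine, at 0.27 against 0.01 after sleep deprivation.

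Across the receptor lists as wholes, serotonin receptor genes had a median of 0.045 with 11 of 14 higher, 10 of 14 after quantile normalization. GABA-A subunit genes were lower in 7 of 11, with a median of -0.033, and dopamine and noradrenaline receptor genes -0.016 with 6 of 7 lower. Interneuron genes were lower in 12 of 18, with a median of -0.062, and voltage-gated potassium channel genes -0.038 with 18 of 25 lower, Kcnh5 being the 1 with an unadjusted p under 0.05. After quantile normalization the GABA-A list was at -0.0027 with 6 lower and the potassium channel list at -0.0083 with 16 lower. Under that normalization 50.2% of all genes were lower. Without it, 64.6% of genes at or above the median level were lower. Synaptic scaffold and vesicle genes were lower in 18 of 27 with a median of -0.017, which was 0.0036 with 11 lower after quantile normalization. Dlg1, the scaffold SAP97, had all treated arrays below saline at a small difference of -0.10 ± 0.08 (limma unadjusted p = 0.19).

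Lists tied to ketamine's or wakefulness' signalling were near 0 in the pooled mean, with unequal treatments in single genes. BDNF, mTOR and translation control genes were lower in 12 of 24, with a median of 0.0044 and 0 at unadjusted p under 0.05. Vgf, a neuropeptide precursor gene induced by BDNF, read 623, 578 and 654 after saline, 614, 630 and 511 after ketamine, and 871, 895 and 777 after sleep deprivation. Only its sleep-deprived arrays stood above saline, and the pooled difference was 0.18 ± 0.09. Gsk3b, the kinase inhibited by lithium, was at -0.14 ± 0.08, with -0.11 and -0.17 by treatment. Eif4ebp2, a repressor of cap-dependent translation, was at 0.12 ± 0.08 with 0.12 after each.

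Adenosine signalling genes, through which sleep pressure acts, had a median of -0.0034, turning to 0.017 after quantile normalization, with 4 of 7 lower and 0 at unadjusted p under 0.05. Cytosolic heat shock genes had a median of -0.0072, turning to 0.012 after quantile normalization, with 9 of 18 lower. Hspa1b, an inducible HSP70 gene, was at -0.16 after ketamine and 0.42 after sleep deprivation, which pooled to 0.13 ± 0.11. Unfolded protein response genes were lower in 13 of 20, with a median of -0.035, which was -0.0029 with 11 lower after quantile normalization and 0.0012 without saline array 1. Glucose and glycogen genes had -0.0075, turning to 0.016 after quantile normalization, with 14 of 22 lower. Thyroid hormone genes had -0.033 with 8 of 11 lower, and interferon-response genes 0.0016 with 7 of 17 lower.

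**Figure D4:**
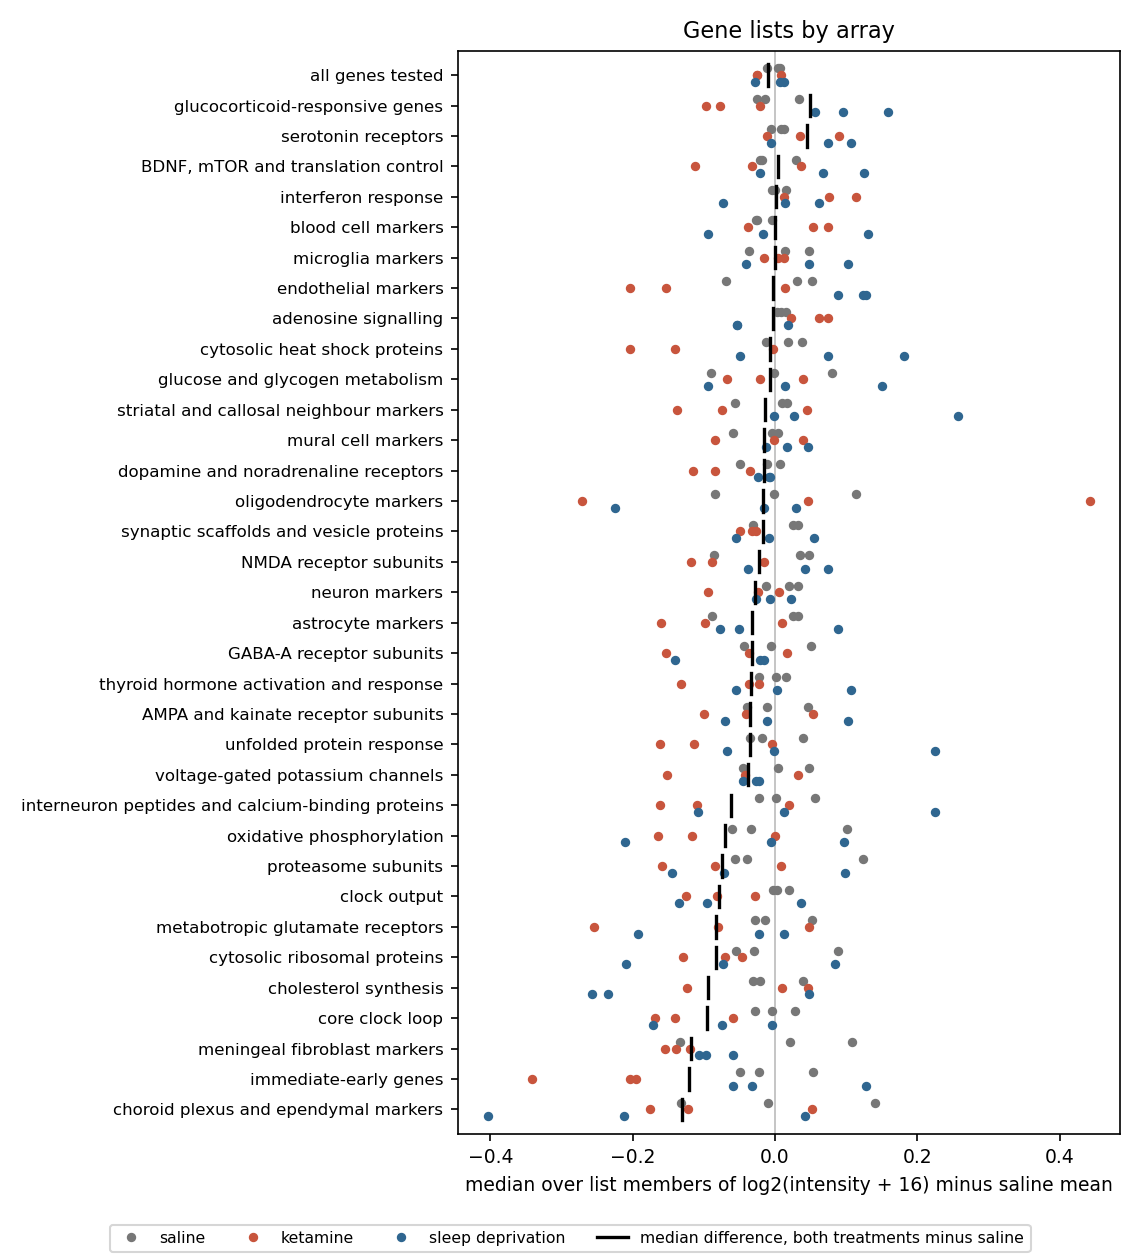
Median over the members of each gene list of log2(intensity + 16) minus the saline mean, with a point per array (saline grey, ketamine red, sleep deprivation blue) and a black bar for the median pooled difference. The bars for core clock (-0.095), immediate-early (-0.12), meningeal (-0.12) and choroid plexus (-0.13) lists lie lowest, and the single arrays of a treatment often lie on both sides of 0.

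Markers of neurons, glia and vessels were read in the same way. The median was -0.029 for neurons, -0.032 for astrocytes, -0.016 for oligodendrocytes and -0.0024 for endothelium, and the last pair were positive after quantile normalization at 0.011 and 0.030. Oligodendrocyte markers scattered widely between arrays: their median was 0.44 on ketamine array 2 and -0.27 on ketamine array 3, and their summed intensity ran from 5886 to 9964 after ketamine, from 6651 to 7944 after saline and from 6025 to 7445 after sleep deprivation. With 1 array left out their pooled median ran from -0.13 to 0.059. Of 13 microglial markers 7 were higher and 6 lower. Mural cell markers had a median of -0.015, blood cell markers 0.00028, and markers of the neighbouring striatum -0.014, each with 0 members at unadjusted p under 0.05. Summed neuronal marker intensity lay between 33176 and 34595 after saline, 32778 and 35323 after ketamine, and 33195 and 34399 after sleep deprivation, which overlap. For endothelium the treatments parted, with -0.11 after ketamine and 0.11 after sleep deprivation, and 10 of 17 members had an unadjusted p under 0.05 for the difference between treatments, beside 9.48% of all genes.

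Markers of the choroid plexus differed widely between saline arrays. Ttr, which encodes transthyretin and is made by choroid plexus, read 1624, 8428 and 110 after saline, 207, 467 and 138 after ketamine, and 89.5, 104 and 428 after sleep deprivation. Saline array 2 was far above all others and saline array 3 was among the lowest. The pooled difference of -2.50 ± 0.92 rested on saline arrays 1 and 2. Kl, klotho, read 587 in saline array 2 and 113 to 140 in all others. Choroid plexus and ependymal markers were lower in 9 of 12, with a median of -0.13, and -0.045 without saline array 2. At unadjusted p under 0.05, 3 of these markers were lower and 0 higher, beside 1.36% and 1.04% of all genes. Their summed intensity lay between 1173 and 10133 after saline, 1261 and 1579 after ketamine, and 973 and 1611 after sleep deprivation.

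Meningeal fibroblast markers were lower in 11 of 12, with a median of -0.12, and -0.031 without saline array 1. Their summed intensity was 3546 to 4695 after saline, 3366 to 3785 after ketamine and 3540 to 3944 after sleep deprivation. No member of either list read under 1 on any array (0 of 12 in each), a limit too low to show expression. The part of such tissue in the lower values of other genes was not tested. Fos, Junb, Npas4, Ciart and Bhlhe41 were chosen for arrays without overlap, so they could not change direction when either saline array was left out. Their unadjusted p from limma was then at most 0.036. As these genes were also chosen by p on this contrast, that value is a description.

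The pooled value hid genes in which the treatments went apart. The 6 bright genes with the smallest p between treatments and a pooled difference under 0.1 in size were Homer1, Fmnl1, Adamts1, Dusp4, Iqgap2 and Rmdn3, each lower after ketamine than after sleep deprivation. Adamts1, a secreted protease gene, read 159, 168 and 149 after saline, 141, 132 and 115 after ketamine, and 190, 191 and 178 after sleep deprivation. Saline lay between the treatments in it, and the pooled difference was -0.03 ± 0.08 against a difference between treatments of -0.48. Dusp4, a MAP kinase phosphatase gene, was at -0.27 and 0.26, and Iqgap2, a scaffold gene of the cytoskeleton, at -0.11 and 0.29, in the order ketamine and sleep deprivation. All had an adjusted p above 0.05 for the difference between treatments.

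**Figure D5:**
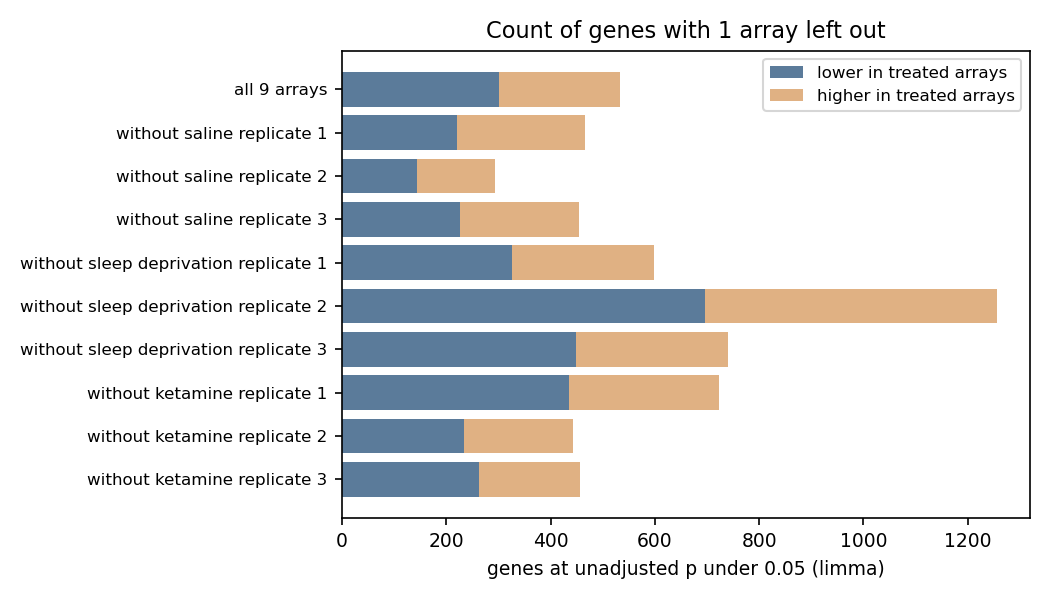
Number of genes with an unadjusted limma p under 0.05 for the pooled difference, with all 9 arrays (533) and with each array left out in turn, split into lower (blue) and higher (tan) in the treated mean. The count ran from 294 without saline array 2 to 1256 without sleep-deprived array 2, and no gene passed adjusted p 0.05 in any of these fits.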

How the data were processed

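Total RNA of anterior cingulate cortex from 9 mice was hybridised to 9 Affymetrix arrays, 3 per group. The submitters' processing notes name the signal estimator PLIER 2.0 and the software Affymetrix Expression Console 1.1.1. The authors' deposited values are linear intensity values of 41345 probe sets. The normalization before it is not given in the sources used here. The log2 values were computed here from the authors' deposited intensities as log2(intensity + 16), which understates the change of dim genes.

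Probe sets were named through the platform annotation and updated to RefSeq symbols: 23521 had 1 symbol (23328 of them matched RefSeq), 1814 had several and 16010 had none. The brightest probe set was used for the 1082 genes with several. The 3 group means were fitted in R 4.3.3 by lmFit, contrasts.fit and eBayes of limma 3.58.1, with 6 residual degrees of freedom and Benjamini-Hochberg adjustment over 22180 genes. The fit was tested on simulated data. Identical columns were looked for and 0 pairs were found.

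Named genes were the leading 10 per direction, the 5 with the smallest p per direction at any level, all core clock genes, immediate-early genes at unadjusted p under 0.05 or without overlap, up to 4 members of each other list, and 6 genes that the pooled value hides. As no gene passed adjusted p 0.05, unadjusted p filled the leading places. The members and the 34 lists of textbook genes were chosen with earlier results of these data known. An older name of Ciart was removed from the clock output list after values were seen. Alternatives covered normalization, centring, dim genes, offsets, probe sets, variance model, array weights, replicate block and each array left out.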

Additional observations from a re-analysis of the deposited data

Results flagged for a closer look

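In 12 genes named here every ketamine array lay on one side of the saline mean and every sleep-deprived array on the other, with an unadjusted limma p under 0.05 for ketamine minus sleep deprivation. In each the value was lower after ketamine. The difference was -0.74 for Cdkn1a, a cell cycle inhibitor gene, -0.58 for Homer1, -0.53 for Fmnl1, a formin gene, -0.53 for Dusp4, -0.48 for Adamts1, -0.42 for Rmdn3, -0.40 for Iqgap2 and -0.27 for Calr, the calreticulin gene. The other 4, named in the text after their values were seen, were Nptx2 at -0.76, Inhba at -0.65, Dusp5 at -0.62 and Bdnf at -0.52. In Cdkn1a the saline arrays read 353, 341 and 380, the ketamine arrays 351, 296 and 306, and the sleep-deprived arrays 567, 633 and 440. None of the 12 differences had an adjusted p under 0.05 in limma over all genes (0 of 22180, with 2102 at unadjusted p under 0.05), and the smallest adjusted p, 0.172, was shared by Cdkn1a, Nptx2, Dusp5 and other genes. Of the genes 6 were chosen by rule for a small p between the treatments, so their listing is no separate evidence.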

How the results depend on the processing

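The count of genes past adjusted p 0.05 was 0 in limma under every setting run, a threshold of 0.10 included, beside 533 genes at unadjusted p under 0.05. That 533 became 841 after quantile normalization, 834 after cyclic loess normalization (chosen after seeing the data) and 2187 with array weights, where ketamine array 2 took a weight of 7.93. With 1 array left out it ran from 294 (without saline array 2) to 1256 (without sleep-deprived array 2). The 284 genes without overlap became 433 and 439 after quantile and loess normalization, and 372 to 1062 with 1 array left out, where fewer arrays have to separate. Lower genes made up 56.7% of those at unadjusted p under 0.05, but 71.6% with the dimmest genes removed and 68.1% with an offset of 64. Same-numbered arrays deviated together in 2 of 9 pairs (correlation over 0.1), so the numbers were not used as pairs. A replicate block gave 0 genes past adjusted p and 624 at unadjusted p under 0.05. Of 3526 values of 177 named genes under other settings, 3506 moved by less than 1 residual SD and 0 passed adjusted p 0.05. A small difference can vanish or turn its sign within 1 residual SD. Per1, for example, went from -0.02 to 0.01 after quantile normalization. The cause of these shifts was not tested. With 3 arrays per group, even differences far above the median SE of 0.094 did not pass adjusted p 0.05. Examples were Mir29a at 0.62 ± 0.11 and Fos at -0.40 ± 0.09.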
